A study of Mus musculus with 12 samples.

Results

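Ptges and Asl encode a prostaglandin enzyme and an arginine enzyme, and each was read by 1 probe on an array of mouse genes. Ptges was probe 5316 and Asl probe 7275, found as all probes whose single gene symbol in the platform annotation was one of these names, and their Entrez numbers are those of prostaglandin E synthase and argininosuccinate lyase. They are 2 genes of 5723 named by single-symbol probes, and 2 probes of 8734. The cells were primary mixed glia of mice, kept 10 to 12 days in culture and then exposed for 4 hours to 10 ng/ml rrIL-1β or to vehicle alone. The 4 groups were wild-type vehicle, wild-type IL-1β, IL-1R1-/- vehicle and IL-1R1-/- IL-1β, with 3 deposited arrays in each. IL-1R1-/- cells lack the signalling receptor for interleukin-1 and are called IL-1R1-deficient here; the sources used here name no strain, age or form of the deletion. Vehicle and IL-1β arrays form pairs of 1 culture. Both columns of IL-1R1-deficient replicate 3 are rescaled copies of other arrays and were dropped, which leaves 10 arrays in 3 wild-type and 2 IL-1R1-deficient pairs.

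Prostaglandin E synthase, also called mPGES-1, is a membrane enzyme of the MAPEG family that turns prostaglandin H2, the product of the cyclooxygenases Ptgs1 and Ptgs2, into prostaglandin E2. It is known as a cytokine-inducible enzyme, and prostaglandin E2 made in brain vessels and glia acts on the Ptger receptors in fever, pain and inflammation. Argininosuccinate lyase splits argininosuccinate into arginine and fumarate. It works after Ass1 in the urea cycle of liver, and in other cells the same pair of enzymes rebuilds arginine from the citrulline that nitric oxide synthases release.

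The promoter of Ptges is shown because the gene is known as inducible. RefSeq's table for GRCm38.p6 held 1 entry for Ptges; Asl was not matched. The 250 bases before the gene's start lie at chr2:30903298-30903547 on the minus strand, and capitals mark GGGCGG, the GC box, together with GTGGGCG, a core that resembles sites of EGR factors.
Ptges: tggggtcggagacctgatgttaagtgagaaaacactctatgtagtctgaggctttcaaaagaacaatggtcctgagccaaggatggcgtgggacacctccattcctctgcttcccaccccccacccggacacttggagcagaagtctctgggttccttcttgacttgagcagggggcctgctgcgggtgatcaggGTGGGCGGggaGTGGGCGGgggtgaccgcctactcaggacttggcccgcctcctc
Both strands were searched. Each motif occurred 2 times, with the GC boxes starting 53 and 42 bases before the gene's start and overlapping the EGR-like cores. Of 32851 promoter windows of this length, 32.7% held a GC box and 7.02% the EGR-like core. A loose NF-κB-like pattern, also searched, occurred 1 time, overlapping the second GC box, and is held by 45.8% of the windows. TATAAA, held by 12.4%, was not in this window. These are matches of letters only, and no binding was measured.

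The deposited values are linear spot intensities of radio-labelled cDNA, with array medians from 4649 to 60399 over the 12 columns. They are given below as deposited, and as log2 values after quantile normalization over the 5713 probes with a value on all 10 arrays. The single complete Il1r1 probe read between 13.73 and 15.03 on the log2 scale over the 10 arrays and did not separate the genotypes; the place of the probe relative to the deletion is not known, so this checks no label. The files give no background level, so whether a glial marker was detected could not be read. A complete probe was held by 2 of 11 astrocyte and 5 of 14 microglia markers. Of these 0 passed in limma with IL-1β in wild-type glia, where 6.18% of all probes did, and 0 in IL-1R1-deficient glia, where 0% did. In these bulk cultures, a change in the number of cells of a type and in RNA per cell cannot be told apart. Fold changes in both genotypes varied with position in a plate layout inferred from the order of the probes. Between probes with consecutive numbers, the log2 changes with IL-1β correlated at r = 0.636 in wild-type and 0.498 in IL-1R1-deficient glia. Changes and group differences are therefore also given with a smooth trend over that layout removed. With the trend removed these correlations were 0.0911 and 0.108.

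Ptges was higher with IL-1β in all 3 wild-type cultures, as were 19.3% of all probes after quantile normalization. Its deposited intensity went from 9987 to 18904 in replicate 1, from 3514 to 10117 in replicate 2 and from 24639.8 to 36515 in replicate 3. These are ratios of 1.89, 2.88 and 1.48, so replicate 2 had the largest change and replicate 3 the smallest. After quantile normalization the log2 intensities were 13.56, 13.81 and 14.39 in vehicle and 14.45, 15.51 and 15.03 with IL-1β, in the order of replicates 1 to 3. The vehicle and IL-1β arrays did not overlap, as in 8.10% of all probes in this direction. The log2 change was 1.07 ± 0.21 (SE of the limma fit, n = 3 pairs), or 2.10-fold. Without wild-type replicate 2 the log2 change was 0.78. The SEs of the fit rest on a spread shared by the pairs of both genotypes. The SD of the 3 wild-type Ptges pair changes alone was 0.55. Both Ptges and Asl were among the 260 of 5713 probes (4.55%) past the threshold and higher in wild-type glia, against 1.63% lower. The 2 genes were selected on their measured change with IL-1β in these same arrays, so nothing is read from that count and no p-value is given for them. Asl was not past the threshold when any 1 replicate was left out, and Ptges was not without wild-type replicate 1 or 2.

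**Figure D1:**
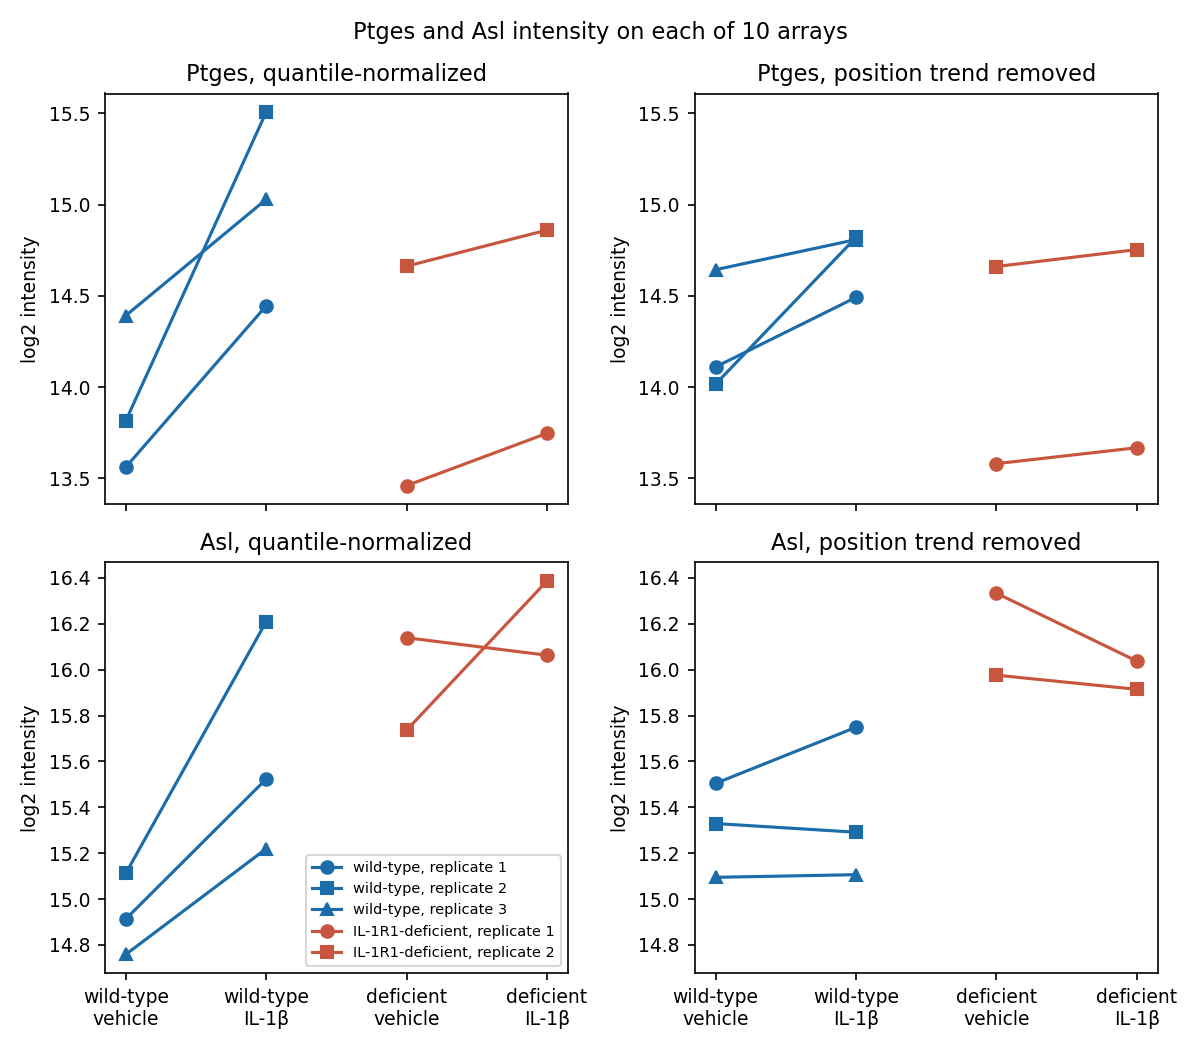
Log2 intensity of the Ptges probe (top) and the Asl probe (bottom) on each of 10 arrays, quantile-normalized (left) and with the position trend removed (right); a line joins the vehicle and IL-1β arrays of 1 culture. All wild-type lines slope up on the left, and on the right the wild-type Asl changes lie between -0.04 and 0.24.

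A large share of the wild-type Ptges change went with the position trend. The trend-removed log2 changes were 0.38, 0.80 and 0.16 in wild-type replicates 1, 2 and 3. The fit gave 0.45 ± 0.14 (SE, n = 3 pairs), or 1.37-fold, and all 3 pairs were still higher, as in 14.9% of all probes. In replicate 2 the change lay above 99.4% of all probes of that pair, in replicate 1 above 89.7% and in replicate 3 above 69.8%. The trend-removed vehicle and IL-1β arrays of wild-type glia overlapped, since vehicle replicate 3 (14.64) exceeded IL-1β replicate 1 (14.49); 4.1% of all probes kept them apart in this direction.

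Probes close to Ptges in the inferred layout had log2 changes nearly as large. Ptges fell in plate 14, row 14, column 12. The 6 tested probes in the adjoining wells all had positive log2 changes in wild-type glia, from 0.43 to 1.06 with a median of 0.89. The 8 tested probes at the same well of other plates in the same part of the layout had changes from 0.42 to 1.05, with a median of 0.79. The Ptges change of 1.07 lay just above the highest of these before trend removal. By culture, Ptges exceeded the median of the adjoining wells by 0.32 and 0.22 in wild-type replicates 1 and 2 and lay below it in replicate 3 (difference -0.11). It exceeded the median at the same well of other plates by 0.43, 0.51 and 0.11 in wild-type replicates 1, 2 and 3. After trend removal the adjoining wells had a median of 0.27 and a highest value of 0.47, against 0.45 for Ptges. The same well of other plates then had a median of 0.17 and a highest value of 0.42.

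**Figure D2:**
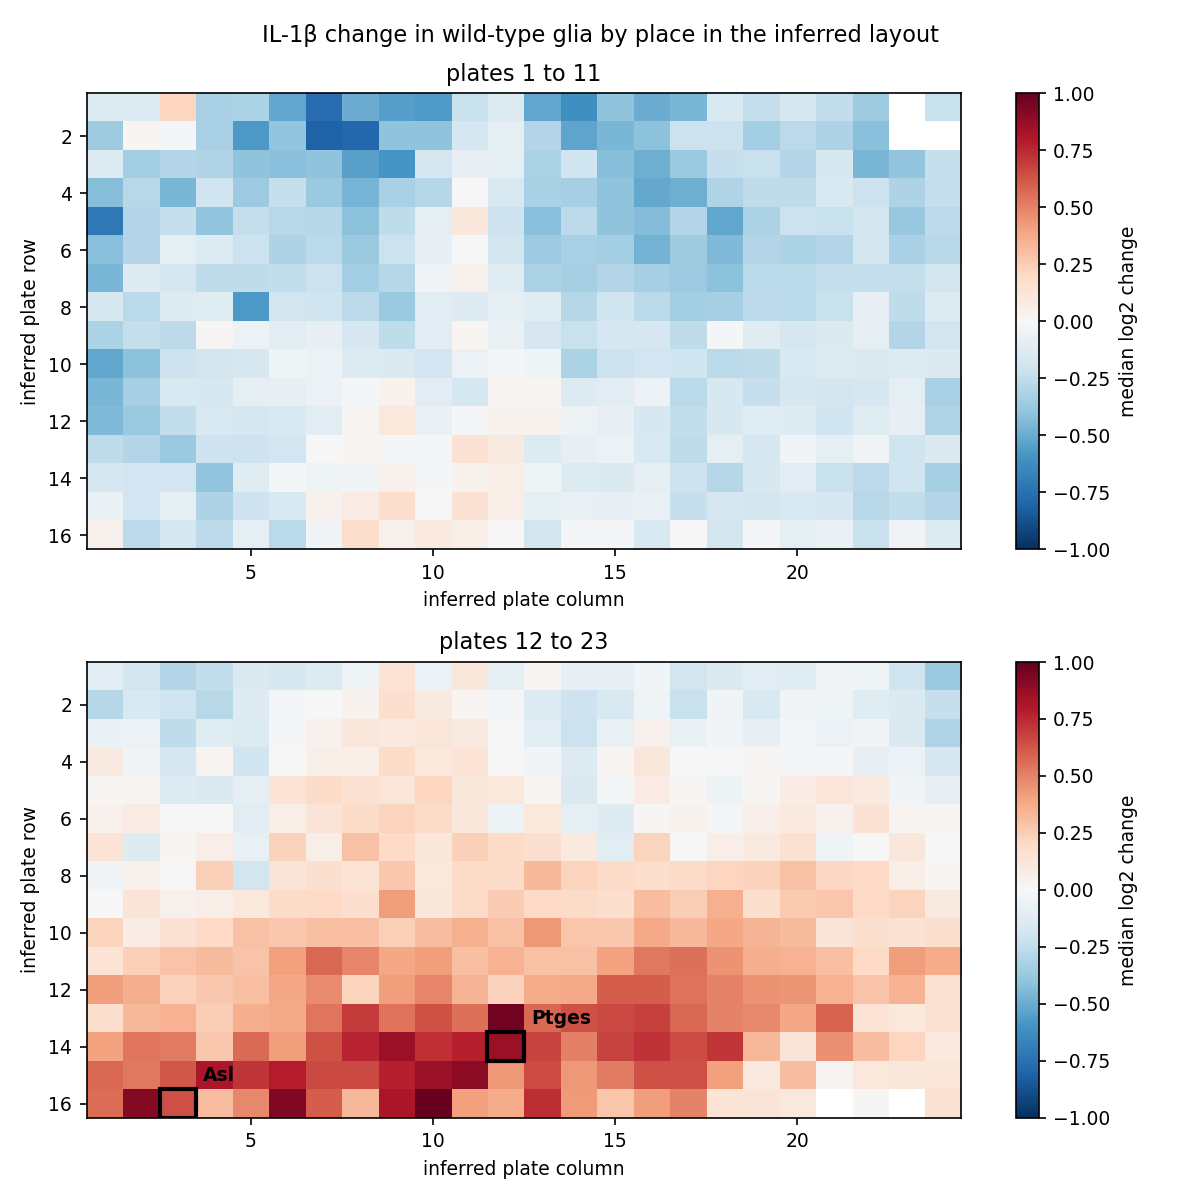
Median log2 change with IL-1β in wild-type glia (colour, -1 to 1) of the quantile-normalized probes at each row and column of the inferred plates, for plates 1 to 11 (top) and 12 to 23 (bottom); white squares have no tested probe or a median near 0. The wells of Ptges and Asl, outlined, both lie in the lower rows of plates 12 to 23, where 93.0% of 1378 tested probes in rows 9 to 16 were positive.

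The wider layout shows how unevenly positive changes were placed. Of 1378 tested probes in rows 9 to 16 of plates 12 to 23, where both Ptges and Asl lie, 1282 had a positive wild-type change, with a median of 0.37. In rows 1 to 8 of plates 1 to 11 the same was true of 92 of 1246 probes, with a median of -0.30. Of the 260 probes called higher, 244 lay in that lower part of plates 12 to 23, and 73 of the 93 called lower in the upper part of plates 1 to 11. With the trend removed 51.6% and 49.4% of the probes in these regions were positive, and 23 probes passed in all (0.403%), 0.298% of all probes higher and 0.105% lower, with neither Ptges nor Asl among them.

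In IL-1R1-deficient glia Ptges had almost the same intensity with and without IL-1β. The deposited values were 19851 in vehicle and 22032 with IL-1β in replicate 1, and 74396 and 79637 in replicate 2, ratios of 1.11 and 1.07. The quantile-normalized log2 values were 13.46 and 13.75 in replicate 1, and 14.66 and 14.86 in replicate 2. The cultures stood further apart from each other than the treatments did. The fitted change was 0.24 ± 0.25 (SE, n = 2 pairs), and 0.09 ± 0.17 with the trend removed. These SEs use the spread shared with wild-type glia. The SD of the 2 pair changes alone was 0.063, and 0.004 with the trend removed. Both pairs were higher under either processing, as in 31.9% of all probes before and 27.7% after trend removal.

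The Ptges response was larger in wild-type than in IL-1R1-deficient glia in the fitted values, by a log2 difference of 0.83 ± 0.33 (SE, n = 3 and 2 pairs), or 1.78-fold. The smallest wild-type change (0.64) exceeded the largest IL-1R1-deficient one (0.29), as in 16.9% of all probes. The difference was 0.36 ± 0.22 (SE) with the trend removed, and then the wild-type changes still lay above both others, as in 12.9% of all probes. Before trend removal the median change in the adjoining wells was 0.89 in wild-type and 0.29 in IL-1R1-deficient glia, a gap in the same direction. After it these medians were 0.27 and 0.17. At the same well of other plates they were then 0.17 and 0.07.

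The 4 groups ranked for Ptges from wild-type IL-1β (mean log2 intensity 14.99 ± 0.53 SD, n = 3) to IL-1R1-deficient IL-1β (14.30 ± 0.79 SD, n = 2), IL-1R1-deficient vehicle (14.06 ± 0.85 SD, n = 2) and wild-type vehicle (13.92 ± 0.43 SD, n = 3). No neighbours in this order differed beyond the larger of their SDs. In vehicle the genotypes differed by 0.14 ± 0.40 (SE, IL-1R1-deficient minus wild-type), and by -0.14 ± 0.32 with the trend removed, so the sign turned. Without normalization the difference was 2.01. Leaving out IL-1R1-deficient replicate 1 gave 0.75 and leaving out replicate 2 gave -0.45, so the culture left out set its sign.

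Asl was also higher with IL-1β in all 3 wild-type cultures, as were 19.3% of all probes after quantile normalization. Its deposited intensity went from 27663 to 45864 in replicate 1, from 7046 to 14601 in replicate 2 and from 31279 to 40646 in replicate 3. The ratios were 1.66, 2.07 and 1.30, and as for Ptges the largest came from replicate 2 and the smallest from replicate 3. The quantile-normalized log2 values were 14.91, 15.11 and 14.76 in vehicle and 15.52, 16.21 and 15.22 with IL-1β. These arrays did not overlap, as in 8.10% of all probes in this direction. The log2 change was 0.72 ± 0.20 (SE of the limma fit, n = 3 pairs), or 1.65-fold, and 0.59 without wild-type replicate 2.

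With the position trend removed, the wild-type pairs of Asl no longer had a common direction. The pairs had 0.24, -0.04 and 0.01, and the fit gave 0.07 ± 0.13 (SE, n = 3 pairs), or 1.05-fold. These changes lay above 80.0%, 44.7% and 49.3% of all probes of their pair. Asl fell in plate 19, row 16, column 3, at the lower edge of the layout. Only 3 adjoining wells held a tested probe, and their changes ran from 0.38 to 0.82 with a median of 0.53. The 4 tested probes at the same well of other plates in that part had a median of 0.49 and ranged from 0.05 to 0.69. Before trend removal Asl, at 0.72, thus changed by less than the highest of its adjoining wells. It lay just above the highest at the same well of other plates.

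**Figure D3:**
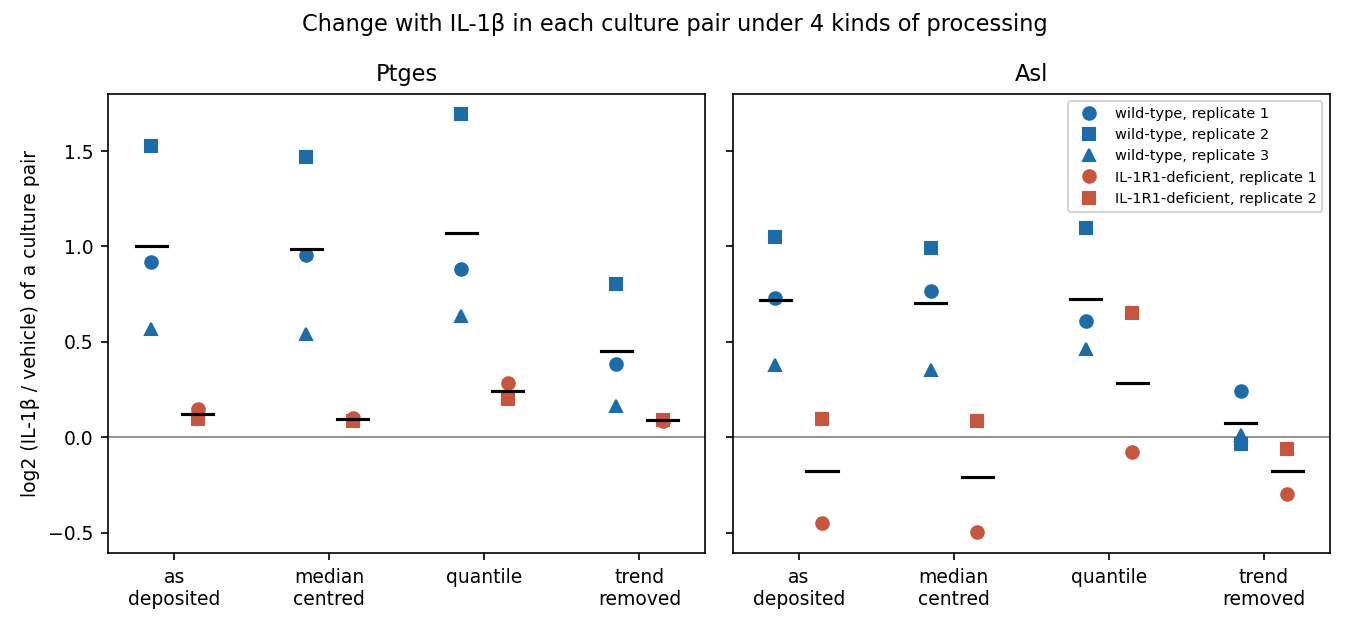
Log2 ratio of IL-1β over vehicle for each culture pair of wild-type (blue) and IL-1R1-deficient (red) glia under 4 kinds of processing; a black bar marks the mean of a genotype. Wild-type replicate 2 has the largest change for Ptges under all 4, and for Asl until the trend is removed. With the trend removed the wild-type mean is 0.45 for Ptges and 0.07 for Asl.

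In IL-1R1-deficient glia the direction of the Asl change depended on the culture and on the scaling. Deposited intensities were 163105 in vehicle and 119531 with IL-1β in replicate 1, a ratio of 0.73, and 177019 and 189292 in replicate 2, a ratio of 1.07. Quantile normalization gave changes of -0.08 and 0.65, with a fitted change of 0.29 ± 0.24 (SE, n = 2 pairs). Median centring gave -0.50 and 0.08, with a mean of -0.21. With the trend removed the pairs had -0.30 and -0.06, and the fit gave -0.18 ± 0.15 (SE). The log2 difference between the responses of wild-type and IL-1R1-deficient glia was 0.44 ± 0.31 (SE, n = 3 and 2 pairs), and 0.25 ± 0.20 with the trend removed. The pair changes of the genotypes overlapped in the quantile-normalized values, where IL-1R1-deficient replicate 2 exceeded wild-type replicates 1 and 3. Once the trend was removed the lowest wild-type change (-0.04) lay just above the highest IL-1R1-deficient one (-0.06), as in 12.9% of all probes. The difference between the responses was 0.04 without IL-1R1-deficient replicate 1 and 0.81 without replicate 2. It was 0.91 with median centring and 0.90 without normalization.

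Asl was higher in IL-1R1-deficient than in wild-type vehicle cultures. In vehicle the log2 intensities were 16.14 and 15.74 in IL-1R1-deficient replicates 1 and 2, and the wild-type arrays lay from 14.76 to 15.11. The groups did not overlap, as in 15.3% of all probes in this direction. The difference was 1.01 ± 0.29 (SE, n = 2 and 3), or 2.01-fold higher in IL-1R1-deficient glia, and 0.85 ± 0.20 with the trend removed, when the groups again did not overlap, as in 13.0% of all probes. Median centring gave 1.44. Under IL-1β the quantile-normalized arrays overlapped, since wild-type replicate 2 (16.21) exceeded IL-1R1-deficient replicate 1 (16.06), and the difference of the means was 0.57; 8.93% of all probes had IL-1R1-deficient arrays above all wild-type ones there. Once the trend was removed they no longer overlapped, as in 11% of all probes, and the means differed by 0.59. The vehicle difference was shared by some surrounding probes, with a median of 0.93 over the 3 adjoining wells and 0.21 over the 4 same wells of other plates. With the trend removed the adjoining wells still had a median of 0.735, from -0.18 to 0.79, against 0.85 for Asl. The same wells of other plates then had a median of 0.05, from -0.82 to 0.77. Genotypes were separate cultures on separate arrays, so culture and genotype cannot be told apart beyond the spread between cultures.

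The groups ranked for Asl from IL-1R1-deficient IL-1β (16.23 ± 0.23 SD, n = 2) to IL-1R1-deficient vehicle (15.94 ± 0.29 SD, n = 2), wild-type IL-1β (15.65 ± 0.51 SD, n = 3) and wild-type vehicle (14.93 ± 0.18 SD, n = 3). The last step exceeded the larger SD of its groups, the middle step did not, and the first was about equal to it. With the trend removed the order was IL-1R1-deficient vehicle (16.16), IL-1R1-deficient IL-1β (15.98), wild-type IL-1β (15.38) and wild-type vehicle (15.31), and the only step beyond the larger SD was that between the genotypes.

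Other genes of the eicosanoid pathway with a complete probe gave no call with IL-1β. Of 41 listed genes 8 had a probe and 6 a complete one; Ptgs1, Ptgs2, Pla2g4a, Ptges2, Hpgd and Ptger1 to Ptger3 were not among those with a single-symbol probe. Beside Ptges, 0 of 5 passed in wild-type glia in limma, where 6.18% of all probes did, and 0 of 5 in IL-1R1-deficient glia, where 0% did. At an unadjusted p under 0.05 the counts over all probes were 1205 and 434. The median log2 change of the 5 in wild-type glia was 0.00, against -0.05 over all 3997 genes tested. Ptgds, the lipocalin-type synthase of prostaglandin D2, had -0.20 ± 0.22 (SE). Ptger4, a receptor of prostaglandin E2, had 0.10 ± 0.28, with 0.78 and 0.52 in wild-type replicates 1 and 2 and a negative value in replicate 3. Slco2a1, which takes prostaglandins into cells, had 0.00 ± 0.17, Pparg, a nuclear receptor, had 0.22 ± 0.18, and Pla2g5, a secreted phospholipase, had -0.02 ± 0.19. Trend removal turned the sign of Ptgds, to 0.09, and of Ptger4, to -0.30, and gave 0.24 for Slco2a1, 0.15 for Pparg and -0.01 for Pla2g5. With incomplete probes kept, 2 of 11 probes of the list, which includes Ptges, were called higher in wild-type glia. Probes with gaps did not all go the same way, in deposited changes relative to the pair median. The second Pparg probe had 0.81, 0.35 and 0.89 in the 3 wild-type pairs. Of the other Slco2a1 probes, number 4604 had 1.22 and 1.33 and number 5404 had -1.06 and -0.42 in wild-type replicates 1 and 2. Ptges3, a co-chaperone also described as a cytosolic prostaglandin E synthase, was complete in 4 pairs, with deposited changes relative to the pair median of 0.32 and 1.09 in wild-type replicates 2 and 3, and 0.04 and -0.94 in the IL-1R1-deficient ones.

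The MAPEG relatives of Ptges were represented by Mgst3, a microsomal glutathione transferase, 1 of the 2 measured of 6 listed genes. Mgst3 rose in wild-type glia by log2 0.78 ± 0.17 (SE, n = 3 pairs; limma adjusted p = 0.0285), with 0.57, 0.95 and 0.82 in replicates 1 to 3. After trend removal it had 0.23 ± 0.12 and no longer passed (limma adjusted p = 0.537). It had 0.39 in IL-1R1-deficient glia, and the difference between genotypes did not pass (0.39, limma adjusted p = 0.547). After trend removal the IL-1R1-deficient change was 0.30 and the difference turned to -0.08.

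In the arginine, urea cycle, nitric oxide and polyamine list 12 of 49 genes had a complete probe, and beside Asl 0 of 11 rose and 1 of 11 fell in wild-type glia, where 4.55% of all probes were called higher and 1.63% lower. The gene that fell was Glul, the glutamine synthetase of astrocytes, by 0.84 on the log2 scale (limma adjusted p = 0.0291). A second Glul probe had -0.10, and trend removal left the first at -0.47, short of the threshold. No probe of the list was called lower without wild-type replicate 2, wild-type replicate 3 or IL-1R1-deficient replicate 2. The median of the 11 was 0.19 before and -0.05 after trend removal, against -0.05 and -0.01 over all genes tested. None of the 11 passed in IL-1R1-deficient glia, in the difference between genotypes (0.158% of all probes did) or between the vehicle groups (0.0175%).

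By role, the neighbours of Asl in arginine metabolism gave the following values, none past the threshold. Arg2, the mitochondrial arginase that consumes arginine, had a wild-type log2 change of 0.07 ± 0.18 (SE). Nos3, a nitric oxide synthase, had 0.35 ± 0.17, and Slc7a1, a carrier that brings arginine into cells, had 0.46 ± 0.18, with 0.01 from its second probe. Ddah1 and Ddah2, which break down methylated arginines that inhibit nitric oxide synthases, had -0.43 ± 0.21 and -0.49 ± 0.17, and the second Ddah1 probe had -0.44. Trend-removed values were 0.09 for Nos3, 0.31 for Slc7a1, -0.33 for Ddah1, -0.21 for Ddah2 and -0.02 for Arg2. Gatm, which uses arginine for creatine, had 0.25 ± 0.22, and 0.41 after trend removal, with 0.19 and -0.01 from its second probe. Pts, of tetrahydrobiopterin synthesis, had 0.48 ± 0.19 and turned to -0.22 after trend removal, with -0.19 and -0.01 from its second probe. Ass1, Arg1, Nos2, Odc1, Otc and Adsl had no single-symbol probe in the annotation used.

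**Figure D4:**
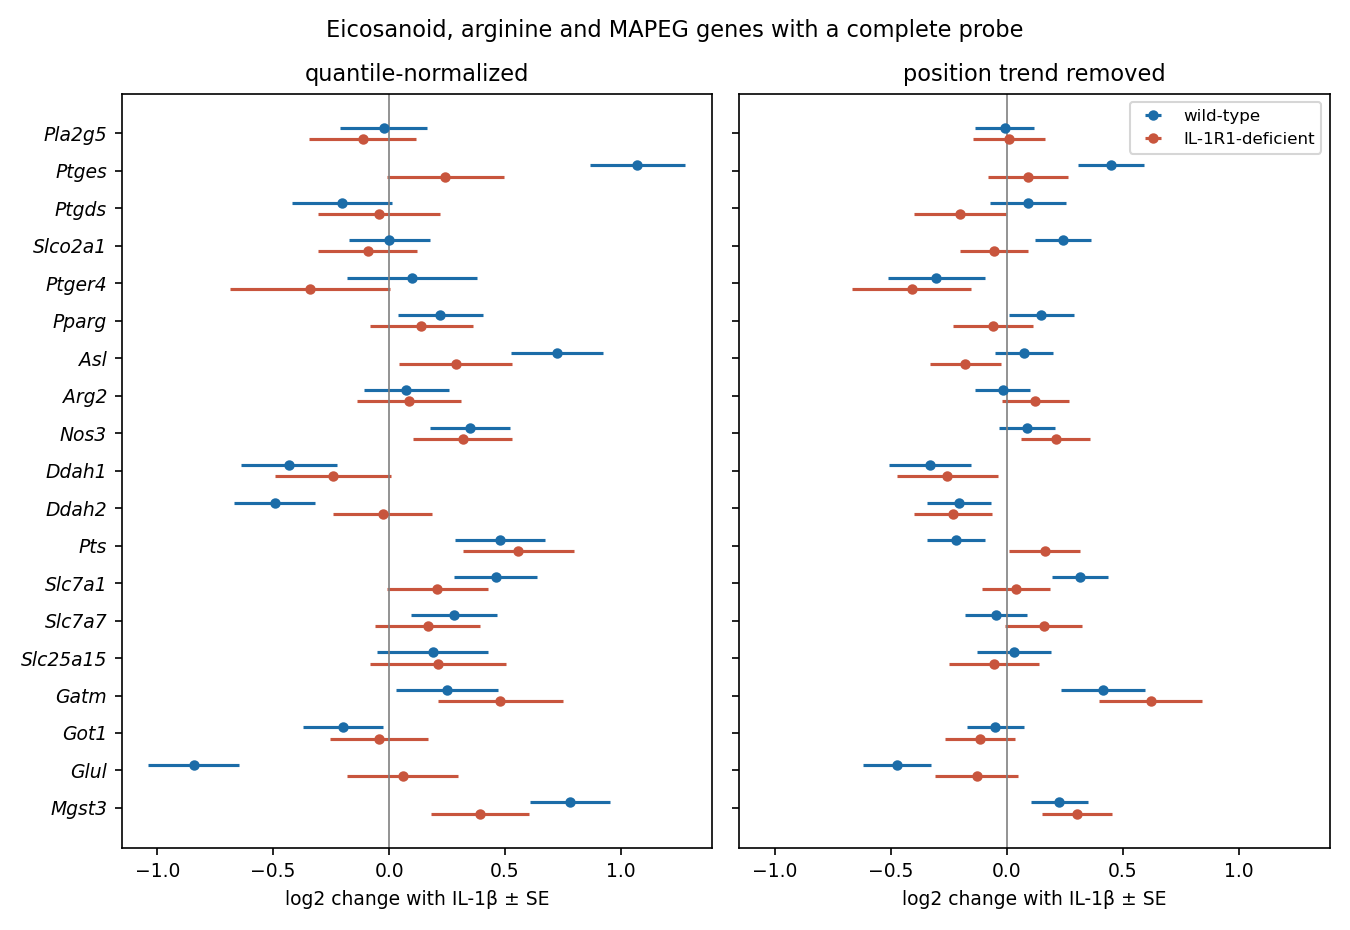
Log2 change with IL-1β (± SE of the limma fit) of the eicosanoid, arginine and MAPEG genes with a complete probe, in wild-type (blue) and IL-1R1-deficient (red) glia, quantile-normalized (left) and with the position trend removed (right); a gene with several probes is shown by its brightest. Ptges, selected on its change in these same arrays, has the largest wild-type value of these genes on both sides, 1.07 and 0.45. Gatm has 0.41 ± 0.18 on the right, and Asl moves from 0.72 to 0.07.

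Genes with the most similar pattern over the 10 arrays were ranked by Pearson's r with each member, over 4663 single-symbol probes. For Ptges these were Zranb2 (r = 0.948), Mtch2 (0.946), Dlg1 (0.938), Cul3 (0.924) and Peli1 (0.909). All 5 lay within 1 row of Ptges in the same part of the inferred layout, and Zranb2 at the same row and column of another plate. For Asl they were Zfp281 (r = 0.956), Retnlb (0.943), Mul1 (0.942), Ube2j1 (0.928) and Eral1 (0.928), all within 1 row and 3 columns of Asl, with Retnlb the next probe in the list. The arrays share cultures and the probes share places, so these are descriptions.

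Removing the trend changed the likeness lists. For Ptges they held Synpo (r = 0.920), Abca7 (0.906), Ikbke (0.901), Maff (0.900) and Extl2 (0.883), which lay 2 to 11 rows away, 2 of them in the other part of the layout. Ikbke is a kinase related to those that activate NF-κB, and Maff a small transcription factor. For Asl they held Usp48 (0.944), Zdhhc1 (0.925), Ube2j1 (0.921), Serpinb2 (0.921) and Zfp281 (0.914). Of these Ube2j1 and Zfp281 were also in the earlier list, and all 5 had positive vehicle differences (IL-1R1-deficient minus wild-type) of log2 0.59 to 0.81, none past the threshold. Ptges and Asl correlated with each other at r = 0.247 over the 10 arrays, and at -0.550 with the trend removed.

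Among markers of other cell types Emcn, of endothelium, rose in wild-type glia (log2 0.84, limma adjusted p = 0.0187), where 4.55% of all probes were called higher. Emcn was 1 of 3 endothelial markers with a complete probe, and Cdh5 had 0.04 and Tek -0.12. With the trend removed Emcn had 0.30 and did not pass (limma adjusted p = 0.444), Cdh5 had 0.36 and Tek 0.11. The summed normalized intensity of the 3 ranged from 42940 to 69710 in wild-type vehicle and from 51500 to 71190 in wild-type IL-1β arrays, which overlap. No defining marker could be read as 0 on this scale, and the part of endothelial cells in the Ptges values was not tested.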

How the data were processed

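Linear spot intensities from 12 single-channel cDNA arrays, as deposited by the authors, were used; no source used here names the image software, background correction or any earlier normalization. Per the series design, treatments were paired in independent biological replicates. IL-1R1-deficient replicate 3 was left out: its vehicle column is a constant multiple of wild-type vehicle replicate 1 at 5959 of the 5982 probes both hold, and its IL-1β column one of IL-1R1-deficient vehicle replicate 1 at 6531 of 6584. The log2 values of the 5713 probes complete on 10 arrays (65.4%) were quantile-normalized and fitted in limma 3.58.1 (R 4.3.3, statmod 1.5.0), with a block for each culture and a separate IL-1β term in each genotype; this filter leaves out probes with any gap. Both genotypes shared this fit, so the SEs of a probe rest on a spread common to all pairs and moderated over all probes by limma. Same-culture deviations correlated at 0.261 to 0.582. The vehicle groups were compared with culture as a random block (correlation 0.388). P-values were adjusted by Benjamini-Hochberg over all 5713 probes, with a threshold of 0.05. The number of arrays limits the precision.

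Probe numbers were read as 23 plates of 384 wells (16 rows, 24 columns), a layout that is inferred and not stated. The position trend is each array's deviation from the mean array, smoothed by robust loess (span 0.2) over row and column in plates 1 to 11 and 12 to 23, and subtracted. The loess also takes out any true change shared by probes near each other. Of 8734 probes 7153 had 1 symbol, 387 several and 1194 none, and several-symbol probes named no gene. The named genes are Ptges, Asl, the listed pathway and marker genes and, for each member, the 5 probes with the highest Pearson's r. Members and lists were chosen with earlier results of these data known. Each replicate was left out in turn, and other normalizations, filters and fits were tried. The fits were tested on simulated data.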

Additional observations from a re-analysis of the deposited data

How the results depend on the processing

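The wild-type change of Ptges was positive in all 15 other settings (0.45 to 1.25) and that of Asl in all 14 (0.07 to 0.84). Both moved beyond the spread between pairs when the position trend was removed, to 0.45 and 0.0727. Leaving out 1 replicate gave 0.78 to 1.25 for Ptges and 0.59 to 0.84 for Asl. With no replicate block they stayed at 1.07 and 0.72, with SEs of 0.39 and 0.26. In IL-1R1-deficient glia Ptges was 0.0937 with median centring, 0.09 with the trend removed, 0.12 without normalization, 0.13 with all 12 columns and 0.17 without the arrays that the copies came from, a setting chosen after seeing the data. Asl there ranged from -0.21 to 0.63 and was positive in 10 of 14 settings. In vehicle, the genotype difference of Ptges was 2.01 without normalization, and that of Asl 1.44 with median centring and 3.22 without normalization.

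The 353 wild-type calls in limma became 23 with the trend removed, 150 with all 12 columns, 14 with no replicate block, 222 with each genotype fitted alone, 992 with incomplete probes kept, 109 without the sources of the copies, and 54 to 343 on leaving out 1 replicate (54 without wild-type replicate 1, 81 without wild-type replicate 2, 102 without IL-1R1-deficient replicate 2 and 225 without IL-1R1-deficient replicate 1). The 0 calls in IL-1R1-deficient glia (434 probes at an unadjusted p under 0.05) became 177 with median centring (1 higher), 153 without normalization, 336 fitted alone and 1 without the sources of the copies, and 0 to 1 on leaving out 1 replicate. The 9 differences in response became 264 with median centring, 240 without normalization, 0 with no replicate block (362 at an unadjusted p under 0.05), 53 with incomplete probes kept, and 3 to 69 on leaving out 1 replicate (69 without wild-type replicate 2). The 1 vehicle difference became 102 with median centring, and 0 without normalization, with the trend removed, with all 12 columns, with incomplete probes kept, without dim probes and with an offset of 1000, and 0 to 32 on leaving out 1 replicate (32 without wild-type replicate 2). It could not be fitted without the sources of the copies.

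The 1 call of the prostaglandin list, Ptges, became 0 with the trend removed or with no replicate block and 2 with incomplete probes kept. It was lost without wild-type replicate 1 or 2 (0 to 1). The 2 calls of the arginine list became 0 with the trend removed, with all 12 columns or with no replicate block, and 1 with each genotype fitted alone, without dim probes, with an offset of 1000 or without the sources of the copies. On leaving out 1 replicate 0 to 1 were called. No probe was called higher in any of these settings, so Asl was not; with all 12 columns it had no complete value and was not tested. The leave-out settings have fewer samples, and the cause of the shifts in any setting was not tested. The files give no signal over background, so no limit of detection can be set.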

Other observations

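Ptges also had values in the pair left out. The column labelled IL-1R1-deficient vehicle replicate 3 held 11205, which is 1.12 times the 9987 of wild-type vehicle replicate 1. The column labelled IL-1R1-deficient IL-1β replicate 3 held 11882, and IL-1R1-deficient vehicle replicate 1, with 19851, is 1.67 times that value. Those are the ratios that hold over nearly all shared probes of these arrays. Asl had no value in either column.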
